A study of Mus musculus with 19 samples.

Results

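Mouse liver tumors carrying MYC and Twist1 were compared with tumors of the same kind in the state that the labels call OFF. The comparison rests on 8 RNA-seq libraries, 5 of the group MYC_Twist1_HCC and 3 of the group MYC_Twist1_OFF. A gene entered if its symbol was not a bare number and its deposited value was at least 1 in at least 3 of these 8 libraries, which gave 12234 of 19486 genes (62.8%). Of these, 1243 reached that value in 3 HCC but not in 3 OFF libraries, and 550 the reverse. The whole series holds 19 libraries in 5 groups. MYC_HCC (5), MYC_OFF (3) and MYC_Recur (3) are used below for comparison. They also enter the same fit, so they share in the estimate of spread behind each SE and p-value.

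The labels give liver as the organ and hepatocellular carcinoma (HCC) as the tissue of all 8 libraries, and total RNA as the molecule. They name no strain, age, sex, construct, promoter, agent or time for either group. OFF is read here from the group name as the state in which the oncogenes were inactivated. In the usual mouse models of this kind, a tetracycline-regulated transactivator made in hepatocytes switches a MYC and a Twist1 transgene on or off, but the labels do not state this. Whether each library is a different mouse is not stated either. A p-value here therefore reflects only how far libraries of the same group lie apart, which may be technical. That spread is pooled over all 5 groups, so a library outside this comparison can widen the SE of a gene. The 5 HCC libraries come from a previous deposit that was processed again, and the 3 OFF libraries are new, so group and deposit cannot be told apart within this comparison. MYC_Recur, also new, is the group that bears on the deposit, and its values are given beside the main results.

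MYC is a transcription factor that pairs with MAX and binds E-box sequences, of which CACGTG is the preferred one. Its best known targets make ribosomes, nucleotides, translation factors and the enzymes of glycolysis, and mice with MYC switched on in hepatocytes develop liver cancer. Twist1 is a transcription factor of mesoderm development that lowers E-cadherin and promotes invasion and metastasis in carcinomas. When MYC is switched off in such liver tumors, tumor cells are known to stop dividing and to differentiate or die, while host cells change as well.

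The values are normalized signals per gene with 2 decimals; sequencing depth is unknown, and no counting interval can be given. Values summed to 507868 to 595284 per library. The 10 highest genes took 8.43 to 12.7% of the sum in the HCC libraries and 22.6 to 26.7% in the OFF libraries, where Rps19 alone took 5.41 to 8.56%. Each library correlated more closely with its own group (lowest r over genes of log2 values 0.915) than with the other group (highest r 0.839). Hepatocyte markers were present in all 8 libraries, with Alb at 724 to 1476 in HCC and 241 to 281 in OFF. These markers bear on the liver label only and cannot check the carcinoma label. In bulk tissue, fewer cells of a type and less RNA per cell cannot be told apart.

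With limma on log2(value + 1), 1600 genes were called higher in OFF (13.1% of those tested) and 4457 were called lower (36.4%) at an adjusted p under 0.05. Together this was 49.5% of the genes tested, and the median difference over all genes was -0.39 on the log2 scale. Of the called genes, 362 were higher and 608 lower by at least 2 on the log2 scale, and 141 higher and 97 lower by at least 3. The groups did not overlap for 1601 genes with OFF above HCC (13.1%) and for 4837 with OFF below (39.5%). A call held without each of the 8 libraries in turn and under 4 other scalings for 816 higher (6.67%) and 2565 lower genes (21.0%). Fitted on the 8 libraries alone, 1947 genes were called higher (15.9%) and 5009 lower (40.9%).

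The balance of the calls depended on the scaling. The median of ratios divides each library by the median over genes of its ratio to the geometric mean over libraries. After this rescaling, 2776 genes were called higher (22.7%) and 2624 lower (21.4%), with a median difference of 0.02. Thus 26.4% of calls were higher with the values as deposited and 51.4% after rescaling; the trimmed mean of M values gave 48.0%, the upper quartile 50.9% and the sum of values 28.0%. A small fall as deposited can therefore be no change after rescaling. Counts of rises and falls below are as deposited, with those of the whole list after rescaling beside them. Counts for parts of a list are as deposited unless stated. Both are to be read against the 13.1% higher and 36.4% lower of all genes as deposited. A fall was also more common among highly expressed genes: 14.4% of the lowest quintile by mean level were called lower, against 50.5% of the highest quintile, while 20.2% and 10.3% were called higher. Transcript length and GC content varied little with the difference over the 11505 genes matched to the annotation (Spearman's rho over genes 0.07 and 0.02).

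**Figure D1:**
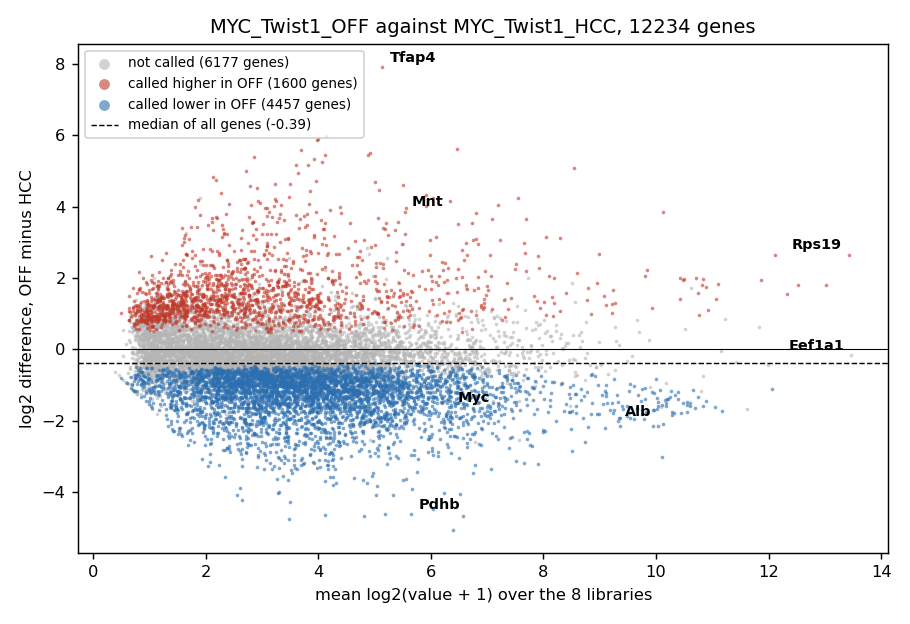
Log2 difference of each of 12234 genes (OFF minus HCC, vertical axis) against its mean log2(value + 1) over the 8 libraries (horizontal axis). The 4457 genes called lower are blue, the 1600 called higher are red, and the dashed line marks the median difference of -0.39; the blue points extend over all levels, and Tfap4 has the highest difference.

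The new MYC_Recur libraries did not lie with the OFF libraries for most of these genes. Of the genes called lower, the mean of the MYC_Recur libraries was nearer to MYC_Twist1_HCC than to MYC_Twist1_OFF for 4098 (91.9%), and every MYC_Recur library was above every OFF library for 3857 (86.5%). Of the genes called higher, it was nearer to MYC_Twist1_HCC for 1343 (83.9%), and every MYC_Recur library was below every OFF library for 1147 (71.7%). MYC_Recur tumors belong to the arm whose labels do not name Twist1, so this is not a within-group check of the deposit.

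Myc itself fell. Its values were 116, 120.0, 134, 153 and 102 in the 5 HCC libraries and 32.5, 40.9 and 45.7 in the 3 OFF libraries, so the groups did not overlap. The mean went from 125 ± 19.3 (SD, n = 5) to 39.7 ± 6.65 (SD, n = 3) (log2 difference -1.63, SE 0.20, adjusted p = 6.07e-06; -1.14 after rescaling). Myc lies at chr15:61985341-61990361 (GRCm38), and whether reads of a MYC transgene count toward it is not given in the sources used here. In MYC_Recur, Myc was 152 to 159, above the 3 OFF libraries and within or above the HCC range. Twist1, the other oncogene in the group names, was listed at 0 to 0.12 in the 8 libraries, under the level required for a test, so these values do not check the Twist1 label.

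Among the 12 measured genes of the MYC network, which share the partner MAX or its relative MLX, 2 rose and 5 fell. The median difference was -0.11, with 4 higher and 3 lower after rescaling. Max fell from 22.2, 16.9, 26.9, 25.3 and 19.7 to 5.0, 2.02 and 6.16 (log2 difference -2.18, SE 0.30, adjusted p = 2.25e-05). Mnt, a MAX partner that represses MYC targets, rose from 22.8, 16.0, 7.92, 17.7 and 20.3 to 584, 307 and 82.4 (log2 difference 3.86, SE 0.71, adjusted p = 0.000259). Its lowest OFF library was above every HCC library, although the 3 OFF libraries spread widely. Mxd1, another repressor of the network, was 0.56 to 3.52 in HCC and 5.15 to 17.9 in OFF (log2 difference 1.88, adjusted p = 0.00798), a call lost without OFF library 1. Mxd3, a family member linked to proliferating cells, fell (log2 difference -1.47, SE 0.33, adjusted p = 0.00153), as did Mxd4 (-0.91) and the glucose-responsive factor Mlxipl (-0.71). The Mxd4 and Mlxipl calls were lost after rescaling (adjusted p = 0.0955 and 0.434), and that of Mlxipl also in 5 of the 8 fits that left out a library. Network genes moved in both directions, at shares near those of all genes (16.7% against 13.1% higher, 41.7% against 36.4% lower). Mnt and Mxd1 rose, while Mxd3 and Mxd4, of the same family as Mxd1, fell, as did Myc and Max.

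Most genes of nucleolar ribosome biogenesis were lower in OFF, and none rose as deposited. Of 45 members, 0 rose and 28 fell; the median difference was -0.87, and rescaled by the median of ratios the list had 5 higher and 17 lower with a median of -0.40. As deposited, 0 of the rises and 21 of the falls held without each library in turn. Nop58, a core protein of box C/D small nucleolar RNA particles, went from 108, 125, 139, 157 and 94.2 to 23.6, 29.8 and 34.6 (log2 difference -2.04, SE 0.22, adjusted p = 2.5e-06). Nop10, of the H/ACA particles that modify ribosomal RNA, was 103 to 190.4 in HCC and 34.5 to 45.1 in OFF (-1.93, SE 0.25). Ncl, the nucleolar protein nucleolin, fell from 254 to 586 to 36.5 to 120.3 (-2.68, SE 0.38), and Noc2l from 50.3 to 78.2 to 10.3 to 24.2 (-1.91, SE 0.26). For all 4 genes, every OFF library was below every HCC library.

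Pes1 and Mybbp1a, both nucleolar proteins, were the 2 called genes of that list whose promoter in the RefSeq table (GRCm38.p6, 250 bases before to 50 after the start) holds CACGTG. They are shown because CACGTG is the sequence MYC and MAX prefer; each promoter is given 5′ to 3′ on the strand of the gene, with the motif in capitals. Both lie on the plus strand of chromosome 11, Pes1 at chr11:3963725-3964024 and Mybbp1a at chr11:72441077-72441376. The motif begins 3 bases from the start in Pes1 and 41 bases in Mybbp1a.
Pes1: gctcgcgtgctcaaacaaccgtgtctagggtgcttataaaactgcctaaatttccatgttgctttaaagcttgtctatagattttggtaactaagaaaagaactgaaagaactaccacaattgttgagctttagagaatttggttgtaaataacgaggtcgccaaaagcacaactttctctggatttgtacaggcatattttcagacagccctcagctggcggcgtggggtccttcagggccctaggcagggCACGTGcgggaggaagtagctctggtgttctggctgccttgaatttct
Mybbp1a: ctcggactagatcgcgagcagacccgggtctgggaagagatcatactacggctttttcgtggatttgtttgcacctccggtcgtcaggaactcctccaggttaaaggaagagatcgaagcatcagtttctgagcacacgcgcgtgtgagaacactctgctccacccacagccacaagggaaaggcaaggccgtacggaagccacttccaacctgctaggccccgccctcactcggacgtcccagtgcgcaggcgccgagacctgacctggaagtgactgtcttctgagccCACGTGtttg
Pes1 values were 76.6, 93.7, 66.7, 86.1 and 56.5 in HCC and 17.96, 36.5 and 19.8 in OFF (log2 difference -1.63, SE 0.25, adjusted p = 6.27e-05). Mybbp1a values were 128, 141, 140.1, 159.8 and 88.7 in HCC and 38.8, 53.4 and 44.3 in OFF (log2 difference -1.50, SE 0.26, adjusted p = 0.000167). In both genes the highest OFF library was below the lowest HCC library.

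The motif CACGTG, which reads the same on both strands, was counted in the promoters of genes that fell and of other genes. Of 9651 tested genes with a listed promoter, 12% had it in at least 1 promoter. This share was 13.3% of genes called lower, 10.6% of those called higher and 11.3% of those not called. Whether these shares differ was not tested. Of all 32851 listed promoters, 7.15% held it, which is a share of promoters and not of genes. Of the 40 ribosome biogenesis genes with a promoter, 7 held it (17.5%), and of the 26 called among them, 2 held it (7.69%). A match is a description of these letters, not a binding site.

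Cytosolic ribosomal protein genes had the lowest median of the 51 lists, yet 6 of them rose, and those were among the most abundant. Of 79 members, 6 rose and 61 fell; the median difference was -1.49, and rescaled by the median of ratios the list had 9 higher and 47 lower with a median of -0.99. As deposited, 5 of the rises and 56 of the falls held without each library in turn. The large subunit had 2 rises and 34 falls among 46 genes, and the small subunit 4 rises and 25 falls among 31. Rpl23a fell from 2329, 2164, 2273, 3795 and 1889.6 to 296, 250.6 and 360.0 (log2 difference -3.01, SE 0.34, adjusted p = 3.46e-06). Rpl36a, Rpl21 and Rpl27 fell by 2.09, 2.23 and 2.28 on the log2 scale. Rps19 rose from 8097, 9142, 5761, 1656 and 7282 to 50636, 28733 and 28889 (log2 difference 2.65, SE 0.56, adjusted p = 0.000847). Rps9 went from 3354 to 8018 to 16264 to 21855 (1.79, SE 0.34). Rps14 (1.80), Rpl28 (1.56) and Rps25 (1.42) also rose, and were named after their values were seen. The sum over all 79 genes was 123501 to 141038 in HCC and 169555, 112552 and 131373 in OFF. The summed value therefore overlapped between the groups while most members fell and a few very abundant ones rose. Ribosomal protein genes have many processed pseudogenes, and how reads shared with these were counted is not given.

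Mitochondrial ribosomal proteins translate the few proteins encoded in mitochondrial DNA, and most of their genes fell. Of 77 members, 4 rose and 48 fell; the median difference was -0.85, and rescaled by the median of ratios the list had 10 higher and 35 lower with a median of -0.37. As deposited, 2 of the rises and 37 of the falls held without each library in turn. Mrpl34 fell from 71.7, 88.5, 86.9, 96.1 and 47.9 to 8.6, 9.85 and 13.1 (log2 difference -2.76, SE 0.25, adjusted p = 6.56e-07), and Mrpl21, Mrpl33 and Mrpl30 fell by 2.73, 2.37 and 2.44. Mrps35 was 75.4 to 125 in HCC and 204 to 243 in OFF (1.13, SE 0.21), and Mrps14 rose by 2.02 (SE 0.54). The other rises, Mrps26 (0.97) and Mrps30 (0.83), were each lost without HCC library 2, 3 or 4 or OFF library 2, among others. As deposited, all 4 rises were in the small subunit (4 of 29 members), and none of 48 large subunit genes rose. After rescaling, 6 small subunit and 4 large subunit genes were called higher. Whether the subunits differ was not tested.

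Most translation factors fell, and an elongation factor subunit rose. Of 43 members, 1 rose and 30 fell; the median difference was -0.98, and rescaled by the median of ratios the list had 3 higher and 19 lower with a median of -0.48. As deposited, 1 of the rises and 24 of the falls held without each library in turn. Etf1, the factor that releases finished proteins, fell from 65.6, 60.5, 79.7, 89.6 and 56.5 to 15.6, 10.6 and 19.1 (log2 difference -2.16, SE 0.20, adjusted p = 7.46e-07). Of the 12 subunits of eIF3, the scaffold of initiation, 9 fell, among them Eif3d (-1.92) and Eif3e (-2.33). Eif4a2, an initiation helicase, fell by 1.98. Eef1b2, which recharges the elongation factor, was the 1 that rose, from 928 to 2982 to 4383 to 5779 (1.84, SE 0.32). Eef1a1, the most abundant member, was 8603 to 16581 in HCC and 8741 to 13299 in OFF (log2 difference -0.17, SE 0.45, adjusted p = 0.78; 0.33 after rescaling, not called; named after its values were seen).

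The enzymes that load amino acids onto tRNA were split. Of 23 members, 4 rose and 14 fell; the median difference was -0.75, and rescaled by the median of ratios the list had 7 higher and 8 lower with a median of -0.27. As deposited, 2 of the rises and 9 of the falls held without each library in turn. Wars (tryptophan) fell from 22.2, 14.9, 20.2, 39.0 and 14.8 to 0.74, 2.13 and 1.09 (log2 difference -3.28, SE 0.41, adjusted p = 8.62e-06), and Yars, Gars and Eprs fell by 2.62, 2.20 and 2.03. Sars (serine) rose from 79.8 to 148 to 198 to 495 (1.44, SE 0.33). Aimp1, a scaffold protein of the synthetase complex, rose by 1.30, and Lars by 1.01, a call lost without HCC library 3 or 4 or OFF library 1 or 2. Farsa and Farsb encode the 2 subunits of the phenylalanine enzyme, and they were called in opposite directions. Farsb fell from 104, 135, 88.5, 86.1 and 90.6 to 13.7, 33.1 and 26.1 (log2 difference -2.07, SE 0.33, adjusted p = 7.38e-05). Farsa was 29.5, 9.84, 356, 177 and 495 in HCC and 1301, 493 and 444 in OFF (log2 difference 2.71, SE 0.97, adjusted p = 0.0274), with overlapping groups and a call lost without HCC library 1 or 2 or OFF library 1. Both genes were named after their values were seen.

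**Figure D2:**
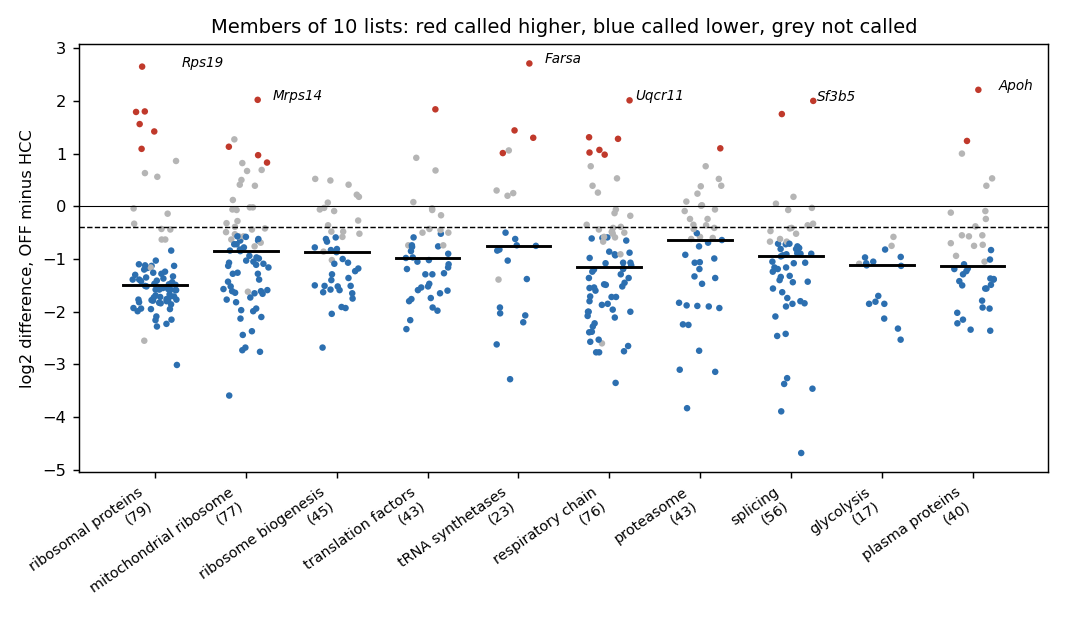
Log2 difference (OFF minus HCC, vertical axis) of every tested member of 10 gene lists, with the number of members in parentheses; black bars are list medians and the dashed line is the median of all genes. Most members of each list lie below 0, with a few called rises such as Rps19, Mrps14, Farsa, Uqcr11, Sf3b5 and Apoh.

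Many proteasome subunits were lower in OFF. Of 43 members, 1 rose and 23 fell; the median difference was -0.64, and rescaled by the median of ratios the list had 3 higher and 18 lower with a median of -0.21. As deposited, 0 of the rises and 19 of the falls held without each library in turn. Psma6, of the core ring, fell from 98.8, 62.1, 100.3, 137 and 61.8 to 4.02, 8.08 and 4.35 (log2 difference -3.83, SE 0.37, adjusted p = 8.33e-07), and Psma4 by 2.74. Psmd14, the cap subunit that removes ubiquitin, fell from 28.8 to 56.0 to 3.02 to 4.73 (-3.14, SE 0.25), and Psmd11 by 2.24. Of 21 cap subunits 13 fell and none rose, and of 17 core ring subunits 8 fell. After rescaling, 10 cap subunits were lower and 0 higher, and 7 core ring subunits were lower and 2 higher. Psme2, an activator induced by interferon, was the 1 that rose (1.10, adjusted p = 0.018), a call lost without OFF library 1.

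Most of the chaperones that were called fell, and an abundant one rose. Of 35 members, 1 rose and 20 fell; the median difference was -0.81, and rescaled by the median of ratios the list had 3 higher and 12 lower with a median of -0.32. As deposited, 1 of the rises and 15 of the falls held without each library in turn. Cct2, of the ring that folds actin and tubulin, fell from 229, 232, 271, 319 and 157 to 43.1, 67.3 and 59.7 (log2 difference -2.06, SE 0.23, adjusted p = 3.46e-06), and 6 of the 8 ring subunits fell. The endoplasmic reticulum chaperones Calr and Pdia3 fell by 2.26 and 1.67, and mitochondrial Trap1 by 1.77. Hsp90aa1, the inducible cytosolic HSP90, rose from 1573 to 5250.0 to 7545 to 11324 (log2 difference 1.93, SE 0.37, adjusted p = 0.000412).

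Lysosome and autophagy genes mostly fell, while Tfeb and Ulk1, which control them, rose. Of 53 members, 5 rose and 28 fell; the median difference was -0.72, and rescaled by the median of ratios the list had 8 higher and 14 lower with a median of -0.31. As deposited, 4 of the rises and 20 of the falls held without each library in turn. Asah1, the lysosomal ceramidase, fell from 20.6, 22.8, 30.6, 38.4 and 23.7 to 4.73, 4.73 and 5.94 (log2 difference -2.17, SE 0.22, adjusted p = 1.34e-06). Gabarap, an autophagosome protein, fell by 2.84, the proton pump subunit Atp6v0e by 3.0 and Wipi2 by 2.08. Tfeb, the transcription factor of lysosomal genes, rose from 9.62, 5.26, 4.97, 3.66 and 6.93 to 26.5, 15.9 and 25.3 (log2 difference 1.76, SE 0.40, adjusted p = 0.00149). Ulk1, the kinase that starts autophagy, was 11.3, 0.31, 3.38, 1.87 and 0.75 in HCC and 329, 22.7 and 23.5 in OFF (log2 difference 4.16, SE 0.94, adjusted p = 0.00151), with OFF library 1 far above the other two. Atp6ap1, described below, Wipi1 (1.26) and Ctsf (1.10) rose too.

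Genes of the respiratory chain had falls in every complex. Of 76 members, 6 rose and 50 fell; the median difference was -1.14, and rescaled by the median of ratios the list had 9 higher and 38 lower with a median of -0.65. As deposited, 2 of the rises and 42 of the falls held without each library in turn. Complex I had 27 falls and 1 rise among 37 genes, complex II 3 falls among 4, complex IV 7 falls and 1 rise among 10, and ATP synthase 10 falls and 1 rise among 15. Complex III with cytochrome c had 3 of each among 10. Ndufs8, a complex I subunit that holds iron-sulfur clusters, fell from 64.1, 70.2, 75.8, 82.3 and 48.8 to 9.64, 7.28 and 10.2 (log2 difference -2.77, SE 0.22, adjusted p = 2.36e-07). Cox6a1 fell from 322 to 560.2 to 84.0 to 117 (-2.28), Atp5f1 by 2.53 and Atp5d by 1.96. Uqcr11, a small complex III subunit, rose from 934, 764, 1163, 795 and 1506 to 5911, 2744 and 4007 (log2 difference 2.01, SE 0.34, adjusted p = 0.000127), and Ndufb10 rose by 1.28. The other rises were Uqcrc2, Uqcr10, Cox4i1 and Atp5g1, each lost without OFF library 1. Respiratory genes encoded in mitochondrial DNA were not analysed here.

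The pyruvate dehydrogenase complex and the citric acid cycle were split between members. Of 19 members, 2 rose and 10 fell; the median difference was -0.62, and rescaled by the median of ratios the list had 3 higher and 6 lower with a median of -0.13. As deposited, 1 of the rises and 7 of the falls held without each library in turn. Pdhb, a catalytic subunit of pyruvate dehydrogenase, was among the strongest falls, from 160.1, 163, 158, 221 and 139.9 to 6.59, 5.57 and 5.21 (log2 difference -4.63, SE 0.34, adjusted p = 1.68e-07). Pdhx, a structural part of the same complex, was 27.6 to 37.7 in HCC and 47.3 to 90.4 in OFF (1.03, adjusted p = 0.0165), a call lost without OFF library 1. Idh3a, of the NAD-dependent isocitrate dehydrogenase, fell by 1.67, and Sucla2, of succinyl-CoA synthetase, fell by 1.36. Idh2, the NADP-dependent isocitrate dehydrogenase, rose from 233, 180.0, 211, 99.8 and 122 to 806, 371 and 995 (log2 difference 2.05, SE 0.38, adjusted p = 0.0003).

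Most glycolytic genes fell. Of 17 members, 0 rose and 14 fell; the median difference was -1.12, and rescaled by the median of ratios the list had 0 higher and 9 lower with a median of -0.65. As deposited, 0 of the rises and 10 of the falls held without each library in turn. Pgk1 fell from 412, 468, 502, 431 and 252 to 73.2, 61.8 and 72.3 (log2 difference -2.53, SE 0.22, adjusted p = 6.29e-07), and Aldoa, the aldolase of muscle and tumors, from 288 to 469 to 66.4 to 77.2 (-2.32). The list sum was 8218 to 10470 in HCC and 4053, 3262 and 4795 in OFF. The hepatocyte genes for glucose release had 3 falls and no rise among 9 (33.3% lower, against 36.4% of all genes), with a median of -0.62. After rescaling 2 were higher and 2 lower, with a median of -0.30. Slc2a2, the hepatocyte glucose transporter, went from 12.1 to 27.1 to 1.11 to 2.03 (-3.02), and Slc37a4, which carries glucose 6-phosphate, fell by 1.63.

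Many nucleotide synthesis genes were lower. Of 15 members, 0 rose and 8 fell in purine synthesis; the median difference was -0.74, and rescaled by the median of ratios the list had 1 higher and 3 lower with a median of -0.25. As deposited, 0 of the rises and 5 of the falls held without each library in turn. Gart, which catalyses several steps of the purine ring, fell from 31.9, 46.8, 38.2, 41.5 and 20.02 to 5.96, 5.36 and 7.14 (log2 difference -2.31, SE 0.28, adjusted p = 5.73e-06), and Gmps and Hprt by 1.95 and 2.43. Of 15 members, 1 rose and 11 fell in pyrimidine and deoxynucleotide synthesis; the median difference was -1.08, and rescaled by the median of ratios the list had 1 higher and 6 lower with a median of -0.60. As deposited, 1 of the rises and 9 of the falls held without each library in turn. Umps, the last enzyme of uridine monophosphate synthesis, fell from 16.6 to 41.6 to 2.71 to 4.72 (-2.84), and Rrm1 and Rrm2, the subunits of ribonucleotide reductase, by 2.34 and 1.80. Dctpp1, a deoxycytidine triphosphate pyrophosphatase, was the 1 that rose, from 399.6 to 1844 to 1981 to 4509 (log2 difference 2.0, SE 0.47, adjusted p = 0.00191).

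Serine, folate, polyamine and amino acid transport genes had more falls than rises. In the one-carbon list 8 of 15 fell and 1 rose, with a median of -0.74 and 2 higher and 5 lower after rescaling. Gldc, which splits glycine, fell from 49.6, 53.6, 54.1, 69.9 and 36.2 to 1.07, 10.1 and 1.62 (log2 difference -3.74, SE 0.43, adjusted p = 4.25e-06), and Ahcy, which clears S-adenosylhomocysteine, fell by 2.18. Mthfd2, the mitochondrial folate enzyme of proliferating cells, was 111, 4.05, 140.5, 18.2 and 8.99 in HCC and 741, 103 and 1509.7 in OFF (log2 difference 4.16, SE 1.21, adjusted p = 0.00907), with overlapping groups and a call lost without OFF library 3. In polyamine synthesis 6 of 12 fell, led by Amd1 (-3.68, SE 0.46), with Srm at -1.57; 3 members were called lower and 1 higher after rescaling. Of 15 amino acid transporters 9 fell and 3 rose (3 higher and 5 lower after rescaling), with Slc7a5, a transporter of large neutral amino acids, at -2.24 and the glutamine transporter Slc1a5 at -1.98. Slc7a2, for arginine, rose from 10.6 to 24.6 to 30.6 to 70.2 (log2 difference 1.58, SE 0.33, adjusted p = 0.000721). Slc7a8 and Slc7a6 rose by 1.13 and 0.90, both lost without OFF library 2, among others.

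Most cell division genes were lower but still present in OFF. Of 35 members, 1 rose and 22 fell in DNA replication; the median difference was -0.93, and rescaled by the median of ratios the list had 3 higher and 13 lower with a median of -0.46. As deposited, 0 of the rises and 19 of the falls held without each library in turn. Mcm2, of the replicative helicase, fell from 37.9, 49.4, 38.6, 52.2 and 32.4 to 8.80, 11.1 and 11.1 (log2 difference -1.91, SE 0.29, adjusted p = 4.53e-05), and Lig1 and Prim1 by 1.51 and 1.61. Orc1, of the origin complex, was 5.32 to 9.98 in HCC and 12.4 to 20.6 in OFF (0.89, adjusted p = 0.0213), a call lost without HCC library 2, OFF library 2 or OFF library 3. Of 38 members, 1 rose and 25 fell in mitosis; the median difference was -0.90, and rescaled by the median of ratios the list had 4 higher and 14 lower with a median of -0.42. As deposited, 0 of the rises and 20 of the falls held without each library in turn. Ccnb1, the mitotic cyclin, fell from 31.4, 48.0, 56.4, 60.5 and 25.99 to 2.43, 2.94 and 4.56 (log2 difference -3.36, SE 0.37, adjusted p = 2.35e-06). Mki67, the proliferation marker Ki-67, fell from 32.8 to 55.5 to 10.2 to 14.6 (-1.63), and Ube2c and Aurkb by 3.91 and 2.25. Racgap1, of the cytokinesis ring, was 5.23 to 129 in HCC and 96.1 to 450.1 in OFF (2.42, adjusted p = 0.0312), lost without HCC library 2 or 4 or OFF library 1 or 2.

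Regulators of the G1 and S phases moved in both directions, at shares near those of all genes (11.1% against 13.1% higher, 33.3% against 36.4% lower). Of 27 members, 3 rose and 9 fell; the median difference was -0.28, and rescaled by the median of ratios the list had 5 higher and 7 lower with a median of 0.15. As deposited, 2 of the rises and 9 of the falls held without each library in turn. Ccne1, the cyclin that starts S phase, fell from 27.2, 33.7, 21.5, 30.2 and 13.1 to 0.53, 2.44 and 0.50 (log2 difference -3.65, SE 0.38, adjusted p = 1.69e-06). E2f1 and E2f4 fell by 1.64 and 2.69. Rbl1, the retinoblastoma relative p107, rose from 9.45, 5.24, 8.90, 6.34 and 5.69 to 47.5, 32.3 and 84.2 (log2 difference 2.70, SE 0.37, adjusted p = 2.12e-05), and E2f6, a repressor of the E2F family, rose by 1.16. E2f3 was 0.94 to 26.6 in HCC and 4.06 to 284 in OFF (3.48), a call lost without OFF library 1 or 2. In the p53 and apoptosis list 9 of 31 fell and none rose (2 higher and 5 lower after rescaling). The share lower, 29%, was under the 36.4% of all genes. Among the falls were the survival gene Mcl1 (-2.10), the p53 target Ccng1 (-2.14) and Casp9 (-2.06).

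Splicing genes mostly fell. Of 56 members, 2 rose and 41 fell; the median difference was -0.94, and rescaled by the median of ratios the list had 2 higher and 25 lower with a median of -0.47. As deposited, 1 of the rises and 32 of the falls held without each library in turn. U2af1, which reads the 3′ splice site, fell from 319, 409.6, 303, 315 and 270.4 to 8.72, 19.4 and 8.94 (log2 difference -4.68, SE 0.36, adjusted p = 2.2e-07). Snrnp200, a helicase of the spliceosome, fell from 8.94 to 30.4 to 0.02 to 0.29 (-3.89), Sf3a1 by 3.37 and Tra2a by 2.09. Sf3b5, a small subunit of the U2 particle, rose from 90.4 to 228 to 619 to 856 (log2 difference 2.0, SE 0.33, adjusted p = 0.0001), and Snrpf rose by 1.75, a call lost in 5 of the 8 fits that left out a library. Among 16 histone genes 2 rose and 6 fell (2 higher and 4 lower after rescaling): the variants H3f3a and H2afz fell by 3.0 and 2.02, and Hist2h3c1 and Hist3h2a rose by 3.34 and 1.34. The histone shares, 12.5% higher and 37.5% lower, were near those of all genes (13.1% and 36.4%). Histone genes have near-identical copies, so their values are uncertain.

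The genes with the widest gap between the groups were ordered by the distance on the log2 scale from the lowest library of the higher group to the highest library of the lower one. All 20 named here were called in each of the 8 fits that left out a library and under each of the 4 other scalings. They are described for their values; the ordering used this comparison, so their p-values are not independent evidence.

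Tfap4, a transcription factor that MYC is known to induce, had the largest rise: 15.8, 0.39, 3.89, 3.69 and 2.49 in HCC and 1916, 1357 and 488 in OFF (log2 difference 7.91, SE 0.76, adjusted p = 9.15e-07). Zdhhc16 and Zdhhc18 encode palmitoyl transferases, which attach fatty acids to proteins. Zdhhc18 was 4.22, 1.69, 2.97, 2.22 and 1.63 in HCC and 297, 231 and 121 in OFF (5.89, SE 0.51). Zdhhc16 was 217, 41.9, 143, 70.0 and 98.0 and 2761, 3236 and 4288 (5.09, SE 0.50). In these 3 genes the lowest OFF library was far above the highest HCC library. Slc41a1, a magnesium transporter, was 4.82, 0.22, 1.01, 0.88 and 1.01 in HCC and 293, 159 and 118 in OFF (6.32, SE 0.61). Pdlim5, a protein of the actin cytoskeleton, was 39.8, 8.66, 33.2, 14.8 and 16.7 and 539, 1359 and 1382 (5.60, SE 0.63). Mbd5 rose by 5.32, She by 5.24 and Rtn1, a reticulon of the endoplasmic reticulum, by 4.18. Spib, a transcription factor of B cells and plasmacytoid dendritic cells, was 0.07 to 0.47 in HCC and 17.5 to 58.3 in OFF (4.83). The B cell markers, by contrast, summed to 0.41 to 1.53 in HCC and 2.19, 0.63 and 0.26 in OFF. Nespas, an imprinted antisense transcript of the Gnas locus, went from 0 to 1.80 to 41.8 to 70.1 (5.01); reads from opposite strands of this locus cannot be told apart, since strand is not given.

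Several of these genes were also variable among the HCC libraries, and HCC library 2 was often lowest. Over all 1600 genes called higher, HCC library 2 was the lowest of the 5 HCC libraries for 572 (35.8%), HCC library 3 for 441 (27.6%) and HCC library 4 for 421 (26.3%), while HCC library 1 was the highest for 605 (37.8%) and HCC library 5 for 577 (36.1%). Over the 4457 genes called lower, HCC library 5 was the lowest of the 5 for 2451 (55.0%). The part of these libraries in the calls is given by the counts without them: 1555 higher and 4160 lower without HCC library 1, 1405 and 4109 without HCC library 2, 1365 and 4264 without HCC library 3, 1302 and 4073 without HCC library 4, and 1596 and 4359 without HCC library 5.

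Among the widest falls were genes of several compartments. Abracl, a small regulator of the actin cytoskeleton, fell from 43.3, 41.6, 29.9, 29.6 and 45.7 to 0.53, 0.33 and 0.39 (log2 difference -4.76, SE 0.24, adjusted p = 1.48e-09). NGFRAP1, also known as Bex3, fell from 310.1, 320.0, 367, 322 and 256 to 12.1, 6.95 and 7.02 (log2 difference -5.06, SE 0.68, adjusted p = 1.66e-05). Both groups were tight, with no OFF library near an HCC library. The SE of NGFRAP1 also takes in MYC_HCC library 4, at 27.5 against 399.6 to 468 in the other MYC_HCC libraries. Itm2b, a membrane protein of the secretory route, fell from 138 to 247 to 6.06 to 10.4 (-4.49, SE 0.33). Mcee, an enzyme of propionate breakdown, fell from 21.9 to 41.7 to 0.64 to 0.95 (-4.29, SE 0.32). Arcn1, a subunit of the COPI coat of Golgi vesicles, fell by 4.10, and Tbl1x, of the nuclear receptor corepressor complex, fell by 4.03. Hmgn5, a nucleosome-binding protein, was 27.9, 17.6, 8.79, 17.8 and 22.9 in HCC and listed at 0 in all 3 OFF libraries (adjusted p = 3.67e-05). Rnf214 was 18.6, 8.78, 26.4, 13.3 and 18.3 in HCC and listed at 0 in all 3 (adjusted p = 3.85e-06).

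The MYC_Recur libraries were on the HCC side for most of these genes. Tfap4 was 0.09 to 0.17 in MYC_Recur, Zdhhc18 0.07 to 0.53, Zdhhc16 24.4 to 42.3 and Pdlim5 20.9 to 122, all below the OFF range. Pdhb was 184 to 262, U2af1 167 to 232 and NGFRAP1 186 to 301, all above the OFF range. Abracl was an exception in level, at 3.17 to 4.07 in MYC_Recur, well below the 29.6 to 45.7 of MYC_Twist1_HCC, and Rtn1 was 0.98 to 33.2, which overlaps the OFF range.

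**Figure D3:**
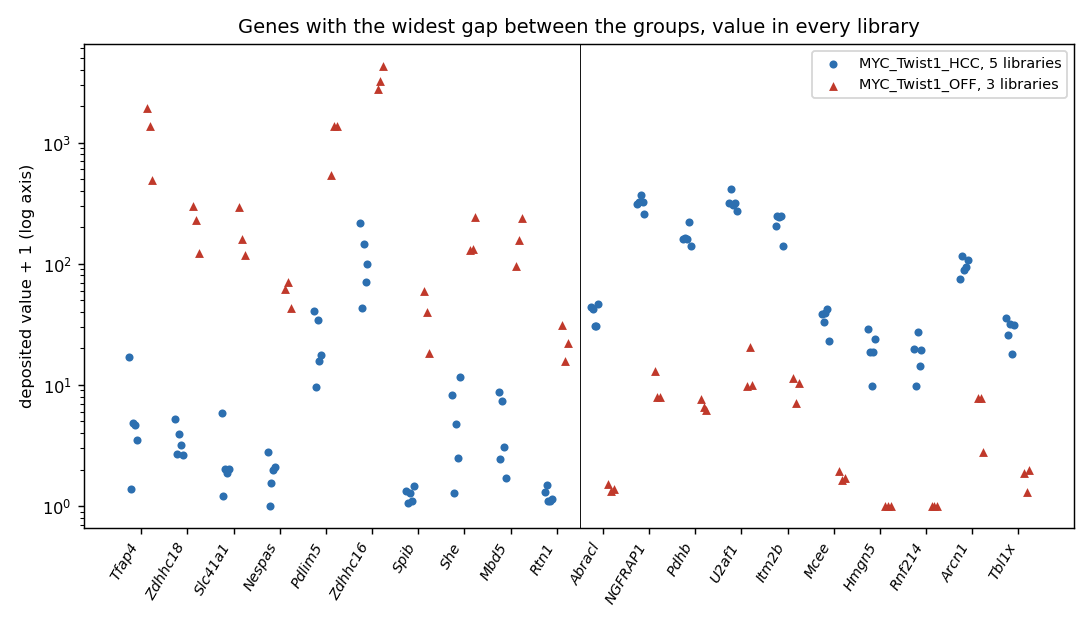
Deposited value + 1 on a log axis for the 10 rises (left) and 10 falls (right) with the widest gap, one point per library, circles for the 5 MYC_Twist1_HCC and triangles for the 3 MYC_Twist1_OFF libraries. The groups do not overlap in any of the 20 genes, and Hmgn5 and Rnf214 lie at 1 in OFF because they are listed at 0.

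Most genes of plasma proteins, the main secreted products of hepatocytes, were lower in OFF. Of 40 members, 2 rose and 23 fell; the median difference was -1.14, and rescaled by the median of ratios the list had 2 higher and 15 lower with a median of -0.65. As deposited, 1 of the rises and 19 of the falls held without each library in turn. Alb, albumin, fell from 1053, 1058, 1476, 1257 and 724 to 279.6, 241 and 281 (log2 difference -2.02, SE 0.33, adjusted p = 0.000106). Gc, the vitamin D carrier, fell by 2.22, Apoa1, the main protein of high-density lipoprotein, by 2.15 and Ttr by 1.92. The 8 hepatocyte markers summed to 6666 to 10004 in HCC and 2764, 2298 and 2995 in OFF. Apoh, a phospholipid-binding plasma protein, rose from 615, 531, 591, 247 and 758 to 3004, 2656 and 1686 (log2 difference 2.21, SE 0.53, adjusted p = 0.00237), and Serpina1b rose by 1.24, a call lost without OFF library 1 or 2. The fibrinogen chains, made together, had Fga at -1.10 (adjusted p = 0.0187), Fgb at -0.75 (adjusted p = 0.0621, not called) and Fgg at -1.23 (adjusted p = 0.000788); these 3 were named after their values were seen, and only the Fgg call held after rescaling.

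Complement and coagulation genes moved both ways, even between subunits. The shares were near those of all genes (15.6% against 13.1% higher, 37.5% against 36.4% lower). Of 32 members, 5 rose and 12 fell; the median difference was -0.52, and rescaled by the median of ratios the list had 5 higher and 9 lower with a median of -0.08. As deposited, 2 of the rises and 9 of the falls held without each library in turn. Proc, the anticoagulant protein C, fell from 50.6, 61.4, 54.0, 57.5 and 33.7 to 0.71, 12.5 and 1.12 (log2 difference -3.81, SE 0.53, adjusted p = 2.3e-05), F13b by 2.63 and Serpinf2 by 2.0. Cfb, complement factor B, rose from 119, 48.3, 39.5, 55.7 and 94.5 to 527, 769 and 177 (log2 difference 2.65, SE 0.54, adjusted p = 0.000687), and C9 by 2.70. F5 and F7 rose by 0.99 and 0.64, both lost without HCC library 4 or OFF library 3, among others. C8b fell from 13.8 to 30.6 to 3.80 to 4.49 (-2.14), while C8a, the chain it joins in the same complex, was 38.2, 5.21, 19.4, 13.9 and 33.9 in HCC and 173, 81.7 and 68.2 in OFF (log2 difference 2.38, SE 0.68, adjusted p = 0.00827; named after its values were seen, and lost without OFF library 1). Among 18 inducible acute phase genes 1 rose and 5 fell (5 higher and 4 lower after rescaling). The shares, 5.56% higher and 27.8% lower, were under those of all genes. Cebpb was -1.81, Crp -2.19, Saa2 -1.63, Il6ra -1.57 and Hamp -0.96, the last lost under 3 of the 4 other scalings. Socs3, the feedback inhibitor of cytokine signals, rose from 1.01 to 6.83 to 10.1 to 22.9 (2.24).

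Metabolic genes of the liver fell in part, set against 36.4% lower and 13.1% higher over all genes. The share called lower was 48.6% for the urea cycle and amino acid breakdown, 48.3% for fatty acid oxidation and 54.1% for lipid synthesis. For cytochrome P450 (12%) and bile acid genes (21.1%) it was under the share of all genes. Of 35 genes of the urea cycle and amino acid breakdown 17 fell and 1 rose (2 higher and 11 lower after rescaling), with Fah, the last enzyme of tyrosine breakdown, at -2.90, Got1 at -1.84 and Ass1, a urea cycle enzyme, at 0.95, a rise lost in 6 of the 8 fits that left out a library. Of 29 fatty acid oxidation genes 14 fell and none rose (3 higher and 7 lower after rescaling), with Hadh falling from 124 to 259 to 28.6 to 40.8 (log2 difference -2.52, SE 0.26, adjusted p = 1.49e-06). Of 37 lipid synthesis genes 20 fell and 2 rose (4 higher and 14 lower after rescaling). Scd2, a desaturase of fatty acids, fell by 2.25, and Acaca, which commits carbon to fatty acids, fell by 1.66. Acly, which supplies cytosolic acetyl-CoA, rose from 65.7, 104, 53.7, 26.6 and 13.9 to 115, 196 and 417 (log2 difference 2.28, SE 0.54, adjusted p = 0.00222), and Pmvk rose by 0.62, a call lost in 7 of the 8 fits that left out a library. Of 25 cytochrome P450 genes 3 fell and 1 rose (1 higher and 2 lower after rescaling): Cyp2d26 was -2.05, CYP2C44 -1.50 and Cyp2c54 -1.10, the last lost in 7 of the 8 fits that left out a library and under all 4 other scalings, and Cyp2a5, which oxidises coumarin, rose from 0.78 to 9.52 to 37.7 to 89.1 (4.02). Of 19 bile acid genes 4 fell, Hsd3b7 (-1.61), Slc27a2 (-1.19), Abcb11 (-1.68) and Abcc3 (-0.92), with 1 higher and 1 lower after rescaling. The Abcb11 call was lost in 7 of the 8 fits that left out a library, and those of Abcb11, Slc27a2 and Abcc3 after rescaling. Abcb11 was 3.56 to 5.42 in HCC and 0.45 to 0.91 in OFF. Its SE of 0.64 takes in MYC_HCC library 4, at 99.1 against 5.08 to 6.73 in the other MYC_HCC libraries.

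Liver transcription factors were split. Of 30 members, 4 rose and 14 fell; the median difference was -0.64, and rescaled by the median of ratios the list had 6 higher and 7 lower with a median of -0.18. As deposited, 2 of the rises and 10 of the falls held without each library in turn. Onecut1, a factor of liver development, fell from 10.2 to 25.5 to 0 to 1.99 (-3.31). Foxa2, a pioneer factor of liver development, rose from 171, 84.1, 214, 21.1 and 98.2 to 445, 1052 and 838 (log2 difference 2.98, SE 0.61, adjusted p = 0.000697). Rxrb, a partner of many nuclear receptors, rose by 2.44, Nr1i3, the receptor CAR, by 1.41 and Thrb by 1.07; Nr1i3 was lost without OFF library 3 and Thrb without HCC library 1 or 4 or OFF library 2. Hnf4a, the central factor of hepatocyte identity, was 93.2, 50.3, 83.6, 93.1 and 94.6 in HCC and 121, 56.2 and 76.2 in OFF, with overlapping groups and no call (log2 difference -0.01, adjusted p = 0.983; 0.48 after rescaling, named after its values were seen).

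Oncofetal genes, silent in adult liver and active in fetal liver and liver tumors, had 3 falls and 1 rise among 17 (1 higher and 2 lower after rescaling). These shares (5.88% higher, 17.6% lower) were under those of all genes (13.1% and 36.4%). Igf2bp3, an RNA-binding protein of fetal tissue, fell from 23.9, 31.1, 37.5, 28.0 and 12.6 to 0.84, 1.90 and 1.07 (log2 difference -3.55, SE 0.48, adjusted p = 1.55e-05), and Bex2 from 126 to 309.9 to 8.65 to 19.2 (-4.03). Igf2, the fetal growth factor, fell by 1.46, a call lost under 3 of the 4 other scalings. Cd24a, a progenitor surface protein, rose from 1.02 to 1.99 to 4.45 to 7.54 (1.47). Of 12 keratin and biliary genes 1 rose and 4 fell (2 higher and 3 lower after rescaling). As deposited this was 8.33% higher and 33.3% lower, also under the shares of all genes. Krt8 and Krt18, which pair into the keratin filaments of hepatocytes, were called in opposite directions. Krt8 fell from 83.2, 71.1, 86.4, 119 and 53.4 to 27.4, 20.7 and 26.1 (log2 difference -1.66, SE 0.37, adjusted p = 0.00133). Krt18 rose from 274, 255, 268, 116 and 489 to 2164, 1833 and 1064 (log2 difference 2.66, SE 0.53, adjusted p = 0.000568). Krt18 also has many processed pseudogenes, and reads shared with them could not be followed.

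Macrophage genes moved in both directions. The sum of 6 markers was lower in OFF, while the sum of the whole list overlapped between the groups. Of 28 members, 7 rose and 6 fell; the median difference was 0.12, and rescaled by the median of ratios the list had 10 higher and 4 lower with a median of 0.54. As deposited, 4 of the rises and 5 of the falls held without each library in turn. The 6 macrophage markers summed to 213 to 261 in HCC and 149 to 175 in OFF, and of these C1qb alone was called. The 30 listed genes summed to 752 to 942 in HCC and 876, 671 and 1200 in OFF. C1qa and C1qb encode chains of the same complement protein; C1qb fell from 55.8, 69.9, 67.1, 78.3 and 46.0 to 13.2, 14.5 and 16.2 (log2 difference -2.02, SE 0.30, adjusted p = 3.72e-05), while C1qa was 56.3, 65.2, 70.4, 50.8 and 56.4 in HCC and 63.8, 59.8 and 66.2 in OFF (log2 difference 0.09, SE 0.24, adjusted p = 0.784; named after its values were seen). Ctss, the lysosomal protease of macrophages, fell by 2.10, and Cd14, the lipopolysaccharide co-receptor, rose from 0.67 to 3.31 to 6.92 to 12.3 (2.07). Genes of one cell type thus did not move together here, and a marker sum depends on which genes it holds.

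Markers of other host cells were low in all libraries. Of 12 neutrophil and monocyte genes 5 rose and 1 fell (6 higher and 1 lower after rescaling): Csf3r, the receptor for granulocyte growth factor, rose from 5.61, 0.37, 2.73, 1.54 and 4.0 to 28.3, 12.1 and 18.02 (log2 difference 2.53, SE 0.55, adjusted p = 0.0011), while S100a9, an abundant protein of neutrophils, fell from 1.12 to 7.16 to 0.31 to 0.90 (-1.44). The neutrophil markers in the table (3 of 4) summed to 6.47 to 11.4 in HCC and 30.8, 15.4 and 22.3 in OFF, mostly through Csf3r. Other rises were Camp (1.23), Fpr2 (0.85) and Ly6c2 (0.72); the Camp and Fpr2 calls were lost without OFF library 1, among others. Of 8 tested T and NK cell genes 2 rose (4 higher and 0 lower after rescaling), Ccl5 (1.09, adjusted p = 0.0307) and Lck (0.94, adjusted p = 0.033); Ccl5 was lost without HCC library 2, 3 or 4 or OFF library 1 or 3, and Lck without HCC library 2, 3 or 4 or any OFF library. T and NK markers summed to 1.6 to 4.26 in HCC and 6.52 to 7.19 in OFF, mostly through Lck (1.40 to 3.45 and 4.10 to 5.19). The other markers in this sum were under the level required for a test. The 32 listed T and NK genes summed to 16.0 to 29.7 in HCC and 39.5, 82.2 and 28.4 in OFF, which overlap. None of 4 B and plasma cell genes was called as deposited, and 2 were called higher after rescaling, with a median of 0.74.

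Endothelial and stellate genes gave rises without the full marker pattern. Of 17 endothelial genes 4 rose and none fell (6 higher and 0 lower after rescaling). Pecam1, a junction protein of endothelial cells and platelets, rose from 4.07, 3.23, 9.57, 5.66 and 11.4 to 106, 59.6 and 60.6 (log2 difference 3.37, SE 0.52, adjusted p = 5.85e-05), and Sox18, a factor of vessel development, from 1.41 to 3.32 to 34.7 to 123 (4.20). Tek, the angiopoietin receptor, rose by 1.58, and Ramp2 by 1.47, a call lost without OFF library 1. The defining markers Cdh5 and Kdr did not rise: Cdh5 was 5.23, 1.27, 3.51, 5.82 and 5.36 in HCC and 1.27, 0.86 and 0.83 in OFF (log2 difference -1.30, SE 0.57, adjusted p = 0.067), and Kdr 1.91 to 2.94 and 1.74 to 3.23 (log2 difference 0.05, SE 0.38, adjusted p = 0.925), both named after their values were seen. The endothelial marker sum, 8.83 to 20.2 in HCC and 109, 63.4 and 65.0 in OFF, rested on Pecam1. Of 30 stellate, fibroblast and matrix genes 7 rose and 4 fell (11 higher and 2 lower after rescaling), with the retinol enzyme Lrat up from 0.20 to 1.22 to 5.95 to 15.9 (2.64), Thy1 up by 2.19 and Col4a2, of basement membranes, down by 1.19. Tgfb1 and Col4a1 fell by 0.77 and 0.46, calls lost in 4 and 6 of the 8 fits that left out a library; the Col4a1 difference was 0.03 after rescaling. Postn, a matrix protein of scars, was 2.53 to 9.83 in HCC and listed at 0 in all 3 OFF libraries (adjusted p = 0.00231). Stellate markers summed to 17.7 to 23.2 in HCC and 17.7 to 22.7 in OFF. The part of host cells in the gene differences was not tested.

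Globin genes moved in both directions. Of 8 erythroid genes 1 rose and 3 fell (3 higher and 3 lower after rescaling). As deposited, the shares of 12.5% higher and 37.5% lower were near those of all genes (13.1% and 36.4%). The beta globin listed as BETA-S fell from 225 to 489 to 53.5 to 67.6 (-2.46), Hba-a1 by 1.03 and the transferrin receptor Tfrc by 1.38, while Hbb-b2, a second beta globin, rose from 60.3 to 118 to 174 to 231 (1.25). The globin genes are near-identical copies, so their split is uncertain.

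Antigen presentation and immune signals were mixed. Called lower were 40% of the MHC class I, 25% of the MHC class II and 18.8% of the interferon list, against 36.4% of all genes. Called higher were 0%, 12.5% and 15.6%, against 13.1%. For checkpoint genes the shares were 30% lower and 10% higher, and for chemokine genes 0% and 30.8%. Of 15 MHC class I and processing genes 6 fell and none rose (2 higher and 5 lower after rescaling): the chaperones Calr and Pdia3 already given, the immunoproteasome subunit Psmb10 (-1.83), B2m, the shared light chain (-1.21, lost after rescaling), Tapbp (-1.04) and the peptide transporter Tap1 (-0.90); the list sum was 1034 to 1703 in HCC and 536 to 559 in OFF. Of 8 MHC class II genes 1 rose and 2 fell (1 higher and 2 lower after rescaling): H2-DMa, which loads peptides, was 1.26, 21.98, 0.73, 1.14 and 0.83 in HCC and 45.0, 30.2 and 67.7 in OFF (log2 difference 3.84, SE 0.93, adjusted p = 0.00249), and Ifi30, a lysosomal thiol reductase, fell from 85.9 to 139.5 to 8.33 to 20.04 (-2.83). Of 32 interferon response genes 5 rose and 6 fell (8 higher and 3 lower after rescaling), with Ifi44 at 1.32, Gbp7 at 1.12, Ifit3 at 0.87, Mx2 at 1.10 (lost without OFF library 3), Dtx3l at 1.93 (lost without OFF library 1 or 2) and Gbp2 at -1.32. Of 13 chemokine and chemokine receptor genes 4 rose and none fell (5 higher and 0 lower after rescaling), and Cx3cr1, the fractalkine receptor of monocytes and macrophages, rose from 3.75, 1.21, 2.98, 0.99 and 2.46 to 21.0, 28.1 and 35.3 (log2 difference 3.20, SE 0.41, adjusted p = 1.01e-05). The other rises were Ccl5, Ccl27a (1.28) and CXCR7 (0.91), all lost without HCC library 3 or 4 or OFF library 1 or 3, among others. Of 10 checkpoint genes 3 fell and 1 rose (3 higher and 2 lower after rescaling): Lgals3 and PVRL2 both fell by 1.18, Cd276 by 0.90 (lost in 5 of the 8 fits that left out a library and under all 4 other scalings), and the gene of the checkpoint protein VISTA, listed under its RIKEN clone name, rose from 1.14 to 3.86 to 4.16 to 15.3 (1.82).

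Genes of the transforming growth factor beta family had 4 rises and 4 falls among 26 (6 higher and 1 lower after rescaling). As deposited, 15.4% were higher and 15.4% lower, against 13.1% and 36.4% of all genes. Tgfbr1, a type I receptor, rose from 13.5, 2.35, 14.5, 4.09 and 6.47 to 172, 83.0 and 91.8 (log2 difference 3.83, SE 0.54, adjusted p = 2.43e-05), the activin receptor Acvr2a by 2.58, the ligand Bmp2 by 2.70 and Smad3 by 0.82, the last lost without OFF library 2 or 3. Smad1, which carries BMP signals to the nucleus, fell by 0.95, Tgfbr2 by 0.93, Bmpr1a by 0.89 and Tgfb1 by 0.77; of these 4 the Smad1 call alone held after rescaling. Among 20 AP-1 and immediate early genes 5 rose and 5 fell (6 higher and 4 lower after rescaling), with Jund at -1.46, Jun at -1.55, Maf at -1.63, Ier2 at -1.0 and Zfp36 at -0.70 among the falls, and Fosl1, described below, Klf2 (2.22), Ier3 (1.13), Klf4 (1.10) and Nr4a1 (0.92) among the rises. The Zfp36, Nr4a1 and Ier3 calls were lost without OFF library 1, among others, and the Zfp36 call also under all 4 other scalings. As deposited, 25% of this list were higher and 25% lower. Among 17 genes of Twist and epithelial-mesenchymal transition 5 fell and none rose (3 higher and 5 lower after rescaling). The share lower, 29.4%, was under the 36.4% of all genes. Cdh1, the E-cadherin that Twist1 is known to repress, fell from 58.3, 79.3, 67.1, 88.6 and 43.0 to 6.88, 7.65 and 7.37 (log2 difference -3.0, SE 0.55, adjusted p = 0.000252), the junction gene Cldn1 by 2.55, the mesenchymal gene Fn1, fibronectin, by 2.02, the desmosome gene Dsp by 1.49 and the fibronectin receptor chain Itga5 by 1.47. An epithelial and a mesenchymal gene thus fell in the same libraries.

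**Figure D4:**
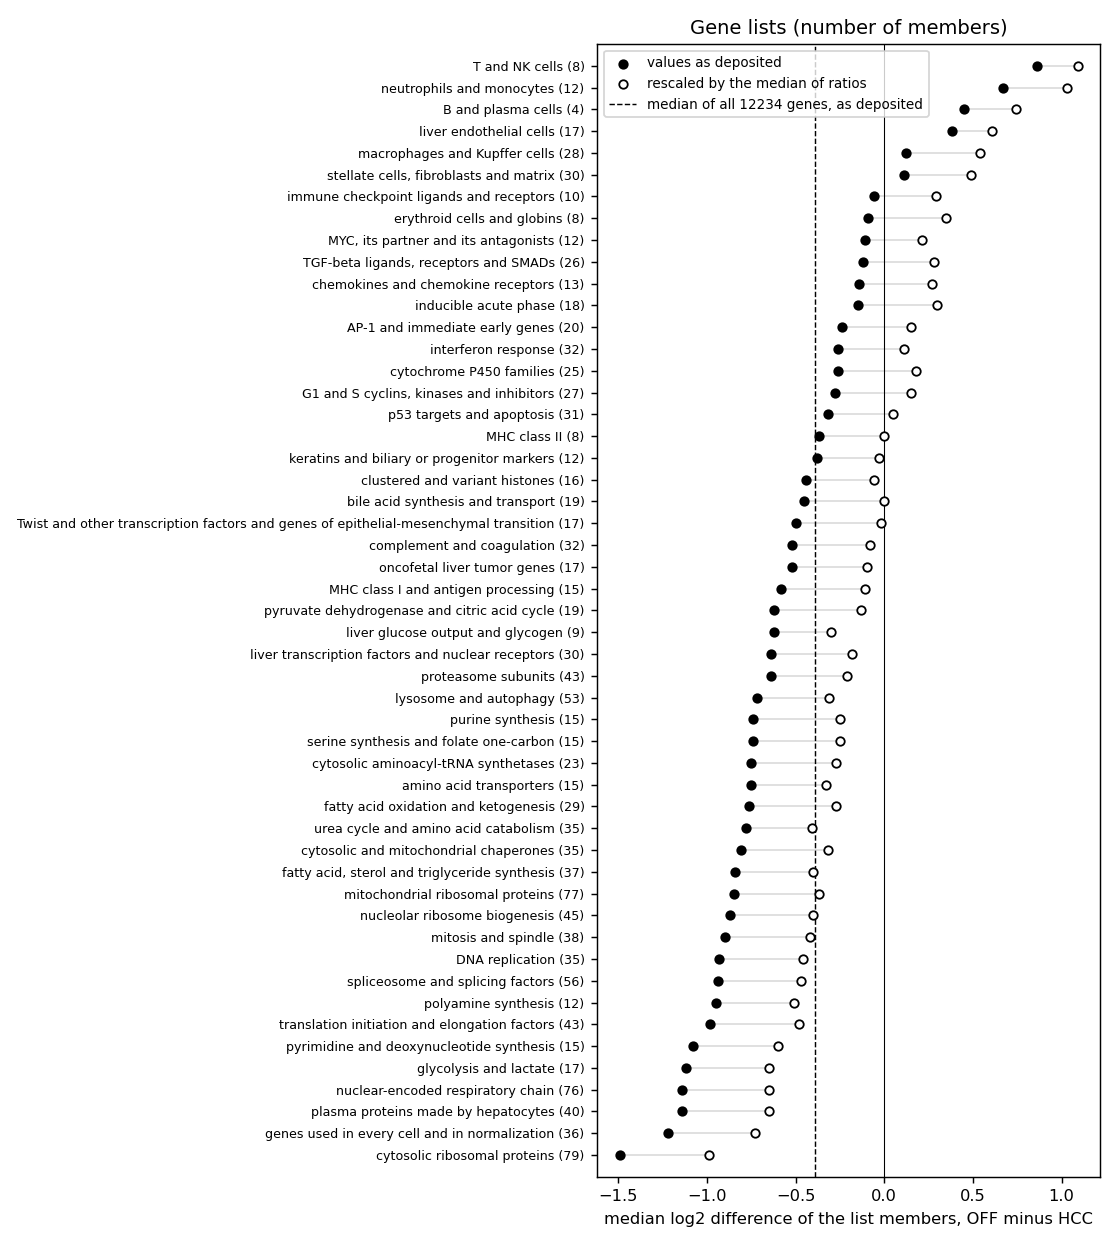
Median log2 difference (OFF minus HCC, horizontal axis) of the tested members of each of 51 gene lists, as deposited (filled) and rescaled by the median of ratios (open), with the number of members in parentheses. The median is lowest for cytosolic ribosomal proteins (-1.49 as deposited, -0.99 rescaled), and 11 of the 51 medians change sign with the scaling.

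The 3 OFF libraries differed among themselves more for the genes that rose than for those that fell. The median SD over OFF libraries was 0.47 for genes called higher and 0.28 for genes called lower, on the log2(value + 1) scale. The 5 called genes with the widest range were Erf, Csnk1a1, Atp6ap1, Calcr and Fosl1, and all but Calcr were highest in OFF library 1. Erf, a repressor of the ETS family, was 4095, 113 and 16.2 in OFF libraries 1, 2 and 3 and 0 to 5.66 in HCC. Csnk1a1, a kinase of beta-catenin, was 1947, 138 and 10.3 in OFF and 0.43 to 4.44 in HCC. Atp6ap1, a proton pump accessory protein, was 1239, 52.6 and 5.36 in OFF and 0 to 1.98 in HCC. In these 3 genes all OFF libraries were above HCC, and the calls were lost without OFF library 1 (adjusted p = 0.0163, 0.0162 and 0.0235 with it). Calcr, the calcitonin receptor, was 7.41, 150.3 and 0.15, and its call was lost without OFF library 2. Fosl1, an AP-1 subunit, was 1705, 16.2 and 0, and its call (adjusted p = 0.0375) was lost without HCC library 1, 2 or 5 or OFF library 1 or 2. Without OFF library 1, 1102 genes were called higher and 3544 lower.

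The same comparison in tumors whose labels name MYC only gave 2268 genes higher (18.5%) and 5071 lower (41.5%) in MYC_OFF than in MYC_HCC, over the same 12234 genes. The comparisons share no library. Of the genes lower in MYC_Twist1_OFF, 4005 (89.9%) were also lower in MYC_OFF, and of those higher 1369 (85.6%) were also higher. Of the genes lower in MYC_OFF, 79.0% were lower here, and of those higher 60.4%. The 2 genes called in opposite directions were Cnksr3 (1.80 here, -2.20 in MYC_OFF) and Fam173a (-0.59 here, 0.55 in MYC_OFF), named after their values were seen; both calls here were lost without OFF library 1, among others, and that of Fam173a also under 3 of the 4 other scalings. Myc fell by 1.81 in MYC_OFF, and the difference of the 2 differences was 0.18 (SE 0.28, adjusted p = 0.883).

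The difference of the OFF differences between the tumor types was tested directly. It was called for 10 genes (0.0817% of those tested), 9 with a lower and 1 with a higher difference in the Twist1-labelled tumors, while 958 genes (7.83%) had an unadjusted p under 0.05. No gene was called without any one OFF library, or HCC library 1, 3 or 5, or without MYC_HCC libraries 4 and 5, an alternative chosen after seeing the data. FBXO18, the DNA helicase also known as Fbh1, fell from 39.5, 45.2, 32.4, 95.1 and 45.5 to 3.34, 1.94 and 4.21 in the Twist1-labelled tumors, and was 0.65 to 12.6 in MYC_HCC and 13.9, 6.05 and 50.4 in MYC_OFF (difference of differences -5.02, SE 0.90, adjusted p = 0.0374). Its HCC values in the 2 tumor types did not overlap, so it started from a higher level in the Twist1-labelled tumors.

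Rsl1, a zinc finger repressor of male-specific liver genes, was 119, 22.9, 69.7, 32.5 and 132 in HCC and 766, 1327 and 1572 in OFF here, against 0.82 to 2.29 and 778, 559.7 and 1108 in the MYC groups (-4.18, SE 0.70). The OFF values of the tumor types overlapped and the HCC values did not. Lpar2, a receptor for lysophosphatidic acid, was 5.52 to 23.6 in HCC and 50.3 to 85.1 in OFF here, against 0.32 to 1.27 and 59.8, 62.0 and 52.7 (-3.02, SE 0.51). Phkg1, a glycogen phosphorylase kinase subunit, was 7.06 to 32.1 and 22.4 to 77.2 here, against 0.60 to 2.03 and 66.9, 128 and 122 (-3.63, SE 0.65). Abracl, among the widest falls above, was 12.7 to 17.4 in MYC_HCC and 1.21, 1.05 and 3.57 in MYC_OFF (-2.26, SE 0.34). Jun, an AP-1 subunit, was 2.79, 6.14, 7.91, 6.23 and 4.57 in HCC and 0.88, 1.78 and 0.90 in OFF here, and 13.5 to 29.7 and 0, 0.95 and 0 in the MYC groups (2.49, SE 0.44). Jun fell in both tumor types, from a higher level in the MYC tumors. The other 4 genes were Uqcrq (-2.19), Gm12504 (-3.97), Chmp4c (-1.95) and Fam160a2 (-1.71).

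**Figure D5:**
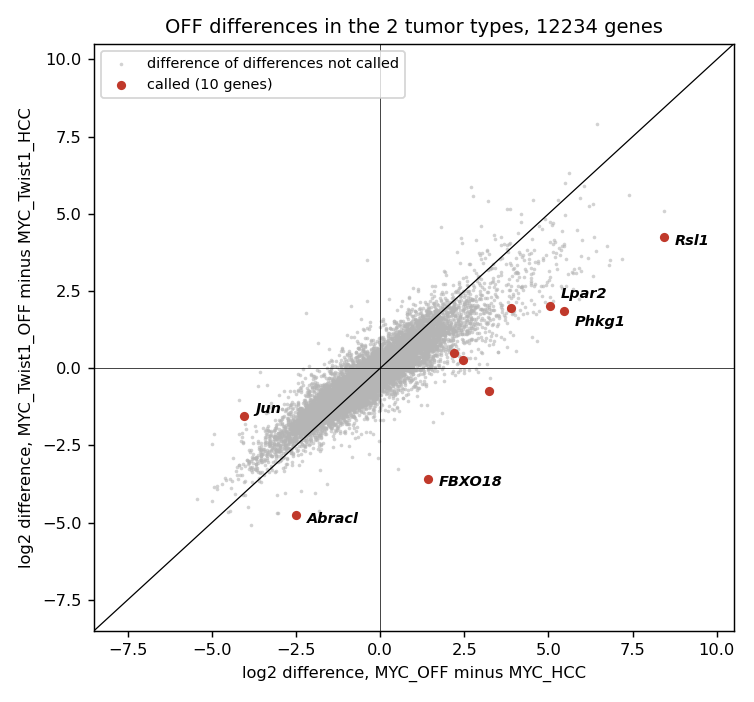
Log2 difference MYC_Twist1_OFF minus MYC_Twist1_HCC (vertical axis) against MYC_OFF minus MYC_HCC (horizontal axis) for 12234 genes, with the line of equal differences. Most genes lie along the line, and the 10 genes whose differences differ are red, 9 below the line and Jun above it.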

How the data were processed

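RNA-seq values of 5 MYC_Twist1_HCC and 3 MYC_Twist1_OFF libraries were compared, with the other 11 of the 19 libraries in the same fit. The values deposited by the authors are normalized signal, in 1 table with a column for each library. The submitters' processing notes name Trimmomatic, STAR, Picard, featureCounts, DESeq2 and mm10; how the signal was derived, the versions, the annotation and the strand setting are not given there. Low values showed no steps of whole reads, so depth is unknown and the count test planned for count data was replaced by limma. Of 19511 symbols, 25 that were bare numbers were left out. Of the 12234 genes tested, 11505 matched a mouse gene name, and other symbols are printed as deposited.

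The test was limma 3.58.1 (R 4.3.3; trend on mean level) applied to log2(value + 1). One model with 5 group means over all 19 libraries left 14 residual degrees of freedom. Low genes show smaller differences on this scale than in the values themselves. Tests were two-sided, p-values were adjusted by Benjamini-Hochberg over all 12234 genes, and a gene was called at an adjusted p under 0.05. The code was tested on simulated data. Alternatives were 4 other scalings, 2 other pseudocounts, 2 other filters, the 8 libraries alone, no trend, a replicate block and each library left out. Rescaled values were divided by each library's median ratio to the geometric mean over libraries. Gene coordinates are from RefSeq (GRCm38), and transcript length and GC content are from GENCODE.

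The genes, lists and tests were chosen with earlier results of these data known. Genes were named by rule: Myc and Twist1; the 10 rises and 10 falls with the widest gap between groups, with a mean of at least 2.59 (the 40th percentile of values above 0) in 1 group and no clone or predicted symbol; up to 4 called members of a list by smallest p, and up to 2 of the other direction; the 5 with the widest range over OFF libraries; the leading called differences of differences; and called ribosome biogenesis genes with CACGTG in the promoter. Members that complete a count of few, and partners set beside a named gene, were added after their values were seen. Some genes that the rule names are not reported here.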

Additional observations from a re-analysis of the deposited data

Results flagged for a closer look

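Most of the genes named above, and others that the same rule picks, were examined library by library. In 23 of these 298 genes, 1 of the 5 MYC_Twist1_HCC libraries lay apart from the other 4, by its gap to the nearest library relative to the group's range on the log2(value + 1) scale. Chance alone gives about 1 in 20 groups. HCC library 5 was the low one for Mlxipl (10.2), Calr (274.6), Gabarap (37.1), Pgk1 (252), Slc37a4 (22.4), Aurkb (14.4), E2f4 (20.9), F13b (22.7), Scd2 (137) and Hba-a1 (129), and the high one for Slc7a2 (24.6) and Ifit3 (0.95). HCC library 4 was the low one for Rps19 (1656), Ndufb10 (281), Sf3b5 (90.4), Uqcrc2 (127) and Uqcrq (598), and the high one for Cldn1 (28.2). HCC library 2 was the low one for Orc1 (5.32) and Hnf4a (50.3), and the high one for H2-DMa (21.98) and Fbln1 (0.24). HCC library 1 was the high one for Wipi1 (1.79).

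For 10 genes the OFF difference itself differed between the Twist1-labelled and the MYC tumors, by the test of the difference of differences in limma (adjusted p = 0.0374 for all but Uqcrq, at 0.0460). On the log2 scale this difference was -5.02 for FBXO18, -4.18 for Rsl1, -3.97 for Gm12504, -3.63 for Phkg1, -3.02 for Lpar2, -2.26 for Abracl, -2.19 for Uqcrq, -1.95 for Chmp4c, -1.71 for Fam160a2 and 2.49 for Jun.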

How the results depend on the processing

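The number of genes called higher was 1600 and ranged from 1102 to 1596 when 1 library was left out. Called lower were 4457, and 3544 to 4359 without 1 library. Other scalings moved these counts most: 2776 higher and 2624 lower with the median of ratios, 2604 and 2817 with the trimmed mean of M values, and 2758 and 2664 with the upper quartile. Requiring a value of at least 5 in 3 libraries gave 1010 higher. The difference of the differences was called for 10 genes, and for 0 to 11 genes without 1 library (0 without OFF library 1, 2 or 3 or HCC library 1, 3 or 5), and for 0 without MYC_HCC libraries 4 and 5, an alternative chosen after seeing the data. Same-numbered HCC and OFF libraries correlated at 0.0082, 0.241 and 0.398 in their deviations from the group means. OFF library 1 correlated best with another number (0.147). OFF libraries 2 and 3 correlated best with their own number (highest other 0.135 and -0.00869). These values do not settle whether the numbers pair the libraries. With the replicate number as a block, which left 2 residual degrees of freedom, 1868 genes were higher and 4546 lower. Of 289 called genes that were followed singly (most genes named in the text, and others that the naming rule picks), 235 were called in all 8 fits without 1 library, 269 under all 4 other scalings and 277 with the block. Genes that were not called changed sign: Hnf4a to 0.48 (median of ratios), 0.43 (trimmed mean of M values), 0.48 (upper quartile), 0.02 (sum of values), 0.13 (block), and -0.30 (without OFF library 1) to 0.25 (without OFF library 2) when 1 library was left out; Eef1a1 to 0.33, 0.27 and 0.32 in the first 3 scalings and 0.03 with the block; C1qa to -0.01 with the block; and Kdr ran from -0.09 (without OFF library 3) to 0.22 (without OFF library 1). Col4a1, which was called, changed to 0.03 (median of ratios) and 0.02 (upper quartile). Of 51 list medians, 45 were below 0 as deposited and 34 with the median of ratios; 11 changed sign. The cause was not tested. Count tests by DESeq2 or edgeR, listed as an alternative, were not run because the values are not counts, and unknown depth leaves low values without a counting error.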

Other observations

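Genes used in every cell, several of them common references for normalization, were not level between the groups. Of 36 such genes, 26 fell and none rose, with a median difference of -1.22 on the log2(value + 1) scale, against -0.39 over all genes. Without each library in turn, 22 of the falls held. Rescaled by the median of ratios, 1 was called higher and 17 lower, with a median of -0.73. Their values summed to 25567 to 33854 in the HCC libraries and to 19359, 17610 and 24318 in the OFF libraries, so the sums did not overlap. Tuba1b, a tubulin of microtubules, fell from 419, 447, 519, 721 and 301 to 48.1, 55.3 and 46.0 (log2 difference -3.19, SE 0.37, limma adjusted p = 4.11e-06). Rab7, of late endosomes, fell by 2.41. The list shares Pgk1 and other members with lists described above, so its count is not separate from theirs.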
